A study of Mus musculus with 21 samples.

Results

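The amyloid precursor protein gene App was set beside its paralogs Aplp1 and Aplp2, the beta-secretase gene Bace1 and the lipoprotein genes Apoe and Clu in mouse cortex after repeated head impact. These genes were chosen by name and found by their GENCODE symbols, and all 6 were among the 5544 genes with deposited values. Below, a gene is called measured if it is among these, and shares of all genes are taken over them. The high-frequency head impact (HF-HI) model gives mice closed-head impacts several times a day on consecutive days, and the comparison asks how cortical RNA differs 24 h after the last impact. Stranded libraries of total RNA without ribosomal RNA were made from cortex, 1 per mouse, for 10 sham and 11 HF-HI animals. Both groups were male C57BL/6 mice of 12 weeks, of the J substrain by the methods, without a transgene named in the labels. The sham mice therefore serve as the control for isoflurane and handling, since they were not struck. Values were variance-stabilized (VSD) by the authors and are on a log2 scale, where a difference of 1 is close to a doubling for well-measured genes. They ran from 4.59 to 17.7 over the whole table.

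The amyloid precursor protein is a membrane protein of neurons that is cut within its outer part by alpha-secretases or by the beta-secretase, and then within the membrane by the gamma-secretase complex. The beta route releases the amyloid-beta peptide, while the paralogs are cut by related enzymes but hold no amyloid-beta sequence. Apolipoprotein E and clusterin are secreted in brain mainly by astrocytes, carry lipids and bind amyloid-beta.

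Total read counts were not analysed here, so depth is given only relative to the median library, from the spacing of values that come from whole counts. On that scale sham libraries spanned 0.580 to 1.26 (median 0.864) and HF-HI libraries 0.548 to 1.64 (median 1.17) (two-sided permutation test of the logarithms, p = 0.104). Libraries differed more in how their values climb or fall with the GC content of a gene's exons. This GC slope, in log2 units for each 10% of GC, averaged -0.106 ± 0.0775 (SD, n = 10) among sham libraries and 0.0960 ± 0.0602 (SD, n = 11) among HF-HI libraries (permutation test, two-sided, p = 3.0e-05). The HF-HI libraries 9 and 11 stood apart, with the lowest depths of their group, 0.573 and 0.548, and slopes of -0.0385 and 0.0131 that lay among or near those of sham. Since the GC trend and the groups move together, values with the trend removed are given beside many of the results below, and the part of the trend in any difference was not tested.

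Of the 6 genes, 4 were higher in HF-HI and 0 were lower at an adjusted p under 0.05 (limma, moderated t test, adjusted by Benjamini-Hochberg over all genes; a gene is called higher or lower below on this threshold). App, Aplp1, Aplp2 and Clu were higher, and Bace1 and Apoe did not pass. Among all genes 32.6% were higher, 33.6% were lower and 66.3% were either, so passing the test is common in these libraries. The groups did not overlap for App, Aplp2 and Clu, while 8.71% of all genes were higher without overlap. The median difference over all genes was -0.01 and the median absolute difference 0.16. Centring each library on its median changed the table from 1810 higher and 1864 lower genes to 1448 and 2376, with the same 4 of 6 count.

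App (ENSMUSG00000022892, chr16:84949685-85173766, minus strand, GRCm38) had the highest mean VSD value of the 6 genes in both groups. It spanned 13.28 to 13.94 among sham mice (median 13.74) and 14.12 to 14.30 among HF-HI mice (median 14.21). The groups were fully separate, and the sham libraries 2 and 3 were the lowest. The mean was 13.67 ± 0.234 (SD, n = 10) for sham and 14.21 ± 0.0520 (SD, n = 11) for HF-HI. This is a log2 difference of 0.54 (standard error 0.0671) or 1.45-fold, at a limma, Benjamini-Hochberg adjusted p = 4.59e-07. It ranked 263 from the top among the differences of all genes. The difference was 0.58 with the GC trend removed, and 0.48 with GC taken over the principal transcript.

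Aplp2 (ENSMUSG00000031996, chr9:31149557-31211815, minus strand), a paralog expressed widely in and outside the brain, followed App with a smaller difference. It spanned 11.98 to 12.41 among sham mice (median 12.22) and 12.51 to 12.66 among HF-HI mice (median 12.59). The groups did not overlap. The means of 12.21 ± 0.122 (SD, n = 10) and 12.59 ± 0.0443 (SD, n = 11) differed by 0.38 (standard error 0.0395) at a limma, Benjamini-Hochberg adjusted p = 3.70e-08. The difference was 0.30 with the GC trend removed and still passed.

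Aplp1 (ENSMUSG00000006651, chr7:30434982-30445535, minus strand), the paralog whose expression is largely confined to neurons, was higher by a margin that depended on the GC trend. It spanned 12.03 to 12.50 among sham mice (median 12.28) and 12.12 to 12.85 among HF-HI mice (median 12.65). The groups overlapped through HF-HI library 9 alone, and the other 10 exceeded all sham values. The means of 12.30 ± 0.153 (SD, n = 10) and 12.62 ± 0.199 (SD, n = 11) differed by 0.32 (standard error 0.0725; limma, Benjamini-Hochberg adjusted p = 5.79e-04). With the GC trend removed the difference was 0.05 (limma, Benjamini-Hochberg adjusted p = 0.385), so the call was lost. Aplp1 is GC-rich, with an exonic GC content of 59.1% that is at or above that of 96.4% of genes, against 44.7% for App and 51.2% for Aplp2.

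**Figure D1:**
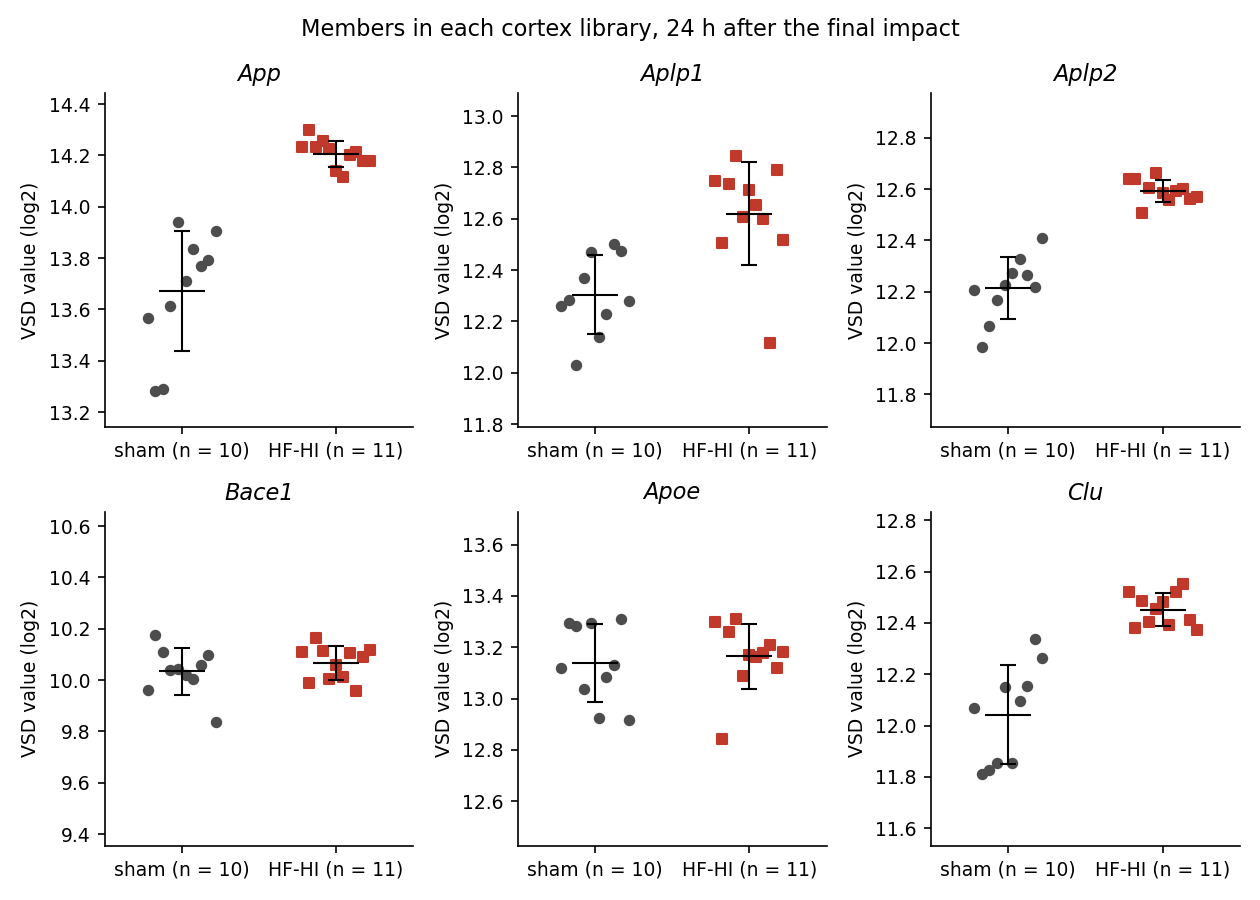
VSD value (log2) of each gene in each cortex library, sham as grey circles (n = 10) and HF-HI as red squares (n = 11), with the mean and SD as black bars and the same length of axis in each panel. The HF-HI libraries of App, Aplp2 and Clu all sit above the sham libraries, 1 HF-HI library of Aplp1 lies among sham, and the groups of Bace1 and Apoe share their range.

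Clu (ENSMUSG00000022037, chr14:65968483-65981547, plus strand), which encodes the secreted chaperone clusterin, was also higher. It spanned 11.81 to 12.34 among sham mice (median 12.08) and 12.37 to 12.55 among HF-HI mice (median 12.45). The groups did not overlap, though the gap between the highest sham and the lowest HF-HI library was 0.03. The means were 12.04 ± 0.193 (SD, n = 10) and 12.45 ± 0.0635 (SD, n = 11), which is a difference of 0.41 (standard error 0.0580) or 1.33-fold, at a limma, Benjamini-Hochberg adjusted p = 2.23e-06. Removing the GC trend left 0.27 (limma, Benjamini-Hochberg adjusted p = 1.69e-04).

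Bace1 (ENSMUSG00000032086, chr9:45838580-45864399, plus strand), the protease of the first cut on the beta route, showed no detectable difference. Its values spanned 9.83 to 10.17 among sham mice (median 10.04) and 9.96 to 10.16 among HF-HI mice (median 10.09). All HF-HI libraries lay within the sham range. The difference of the means was 0.03, with a 95% interval from -0.04 to 0.11 (limma, Benjamini-Hochberg adjusted p = 0.448). The value was -0.02 after centring, -0.01 after quantile normalization and -0.03 with the GC trend removed. The gene overlaps Rnf214 on the opposite strand, which was measured too, and whether the counting used strand is not given in the sources used here, so reads of the shared stretch cannot be assigned to either with certainty.

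Apoe (ENSMUSG00000002985, chr7:19696109-19699188, minus strand), the main apolipoprotein of brain lipoproteins, spanned 12.91 to 13.31 among sham mice (median 13.12) and 12.84 to 13.31 among HF-HI mice (median 13.18). The groups overlapped over nearly their whole range, and HF-HI library 2 was the lowest of all. The difference of the means was 0.03, with a 95% interval from -0.09 to 0.15 (limma, Benjamini-Hochberg adjusted p = 0.706). The direction turned, to -0.03 after centring, -0.02 after quantile normalization and -0.19 with the GC trend removed, where it passed as lower (limma, Benjamini-Hochberg adjusted p = 0.00271). Apoe is GC-rich as well, at 57.4% of its exonic bases.

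Levels can be set against each other only per length of transcript, here the VSD value minus the log2 of the length in kb of the principal transcript. On this log2 per kb scale the sham order was Apoe at 12.65 ± 0.152 (SD, n = 10), App at 12.00 ± 0.234 (SD, n = 10) and Clu at 11.19 ± 0.193 (SD, n = 10), followed by Aplp1 at 11.08 ± 0.153 (SD, n = 10). Aplp2 at 10.35 ± 0.122 (SD, n = 10) and Bace1 at 7.44 ± 0.0920 (SD, n = 10) came last. Clu and Aplp1 did not differ beyond their spread in this order, and the secretase gene was far below its substrates. In HF-HI the order was the same, but App at 12.54 ± 0.0520 (SD, n = 11) stood within the range of Apoe, which was 12.67 ± 0.127 (SD, n = 11) and ran from 12.35 to 12.82. These levels assume that each gene's reads come from its principal transcript, from 1.41 kb in Apoe to 6.06 kb in Bace1.

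The 3 precursor family genes were each higher in the values as deposited, though Aplp1 was not with the GC trend removed. The stretches before their RefSeq starts are shown. RefSeq promoter windows (GRCm38.p6) were matched for 4 of the 6 genes, and the 250 bases before the RefSeq start are printed 5′ to 3′ on the strand of the gene, from chr16:85173708-85173957 for App, chr7:30445583-30445832 for Aplp1 and chr9:31211849-31212098 for Aplp2, all on the minus strand. The RefSeq start of App lies inside the gene as GENCODE bounds it, so 59 of its 250 bases belong to that gene, against 0 for Aplp1 and Aplp2. Capitals mark the GC box letters GGGCGG, searched on both strands.
App: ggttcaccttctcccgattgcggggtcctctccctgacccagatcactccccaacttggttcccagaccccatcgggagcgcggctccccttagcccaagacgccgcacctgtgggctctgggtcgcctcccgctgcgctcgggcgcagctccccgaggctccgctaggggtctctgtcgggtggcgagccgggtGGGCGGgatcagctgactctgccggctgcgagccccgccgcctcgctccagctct
Aplp1: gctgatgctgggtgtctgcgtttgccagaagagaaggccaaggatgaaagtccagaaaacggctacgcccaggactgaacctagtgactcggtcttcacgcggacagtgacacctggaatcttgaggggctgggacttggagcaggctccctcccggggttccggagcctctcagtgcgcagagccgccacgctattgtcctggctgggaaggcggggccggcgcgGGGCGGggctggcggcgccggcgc
Aplp2: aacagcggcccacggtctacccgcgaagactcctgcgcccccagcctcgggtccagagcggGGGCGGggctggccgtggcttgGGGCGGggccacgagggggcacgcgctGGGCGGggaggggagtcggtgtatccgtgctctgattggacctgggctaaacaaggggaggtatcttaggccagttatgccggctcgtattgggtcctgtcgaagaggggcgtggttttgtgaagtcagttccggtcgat
The window of App held 1 GC box, that of Aplp1 held 1 and that of Aplp2 held 3, while 32.7% of all 32851 windows of this length held at least 1. The letters TATAAA, searched on both strands, were in none of the 3 windows and in 12.4% of all windows. GC content was 70.8% in App, 66.0% in Aplp1 and 66.4% in Aplp2, against a median of 52.4% over all windows. The window of Apoe at chr7:19699189-19699438, not printed, had a GC content of 57.2% with 0 GC boxes. Such matches are descriptions of the letters in these windows and not of bound sites.

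Whether App changed by a different amount from the others was tested within each library, as the VSD value of App minus that of the other gene, which does not depend on library size. App rose more than each of the other 5 genes in the values as deposited, and the margin was widest over Apoe and Bace1. App minus Bace1 went from 3.64 ± 0.298 (SD, n = 10) in sham to 4.14 ± 0.0837 (SD, n = 11) in HF-HI, a shift of 0.50 with a 95% interval from 0.31 to 0.70 (permutation test, two-sided, p = 2.0e-05, adjusted p = 7.50e-05 over the 5 pairs by Benjamini-Hochberg). In 9 of 11 HF-HI libraries it exceeded all sham values. App minus Apoe shifted by 0.51 with a 95% interval from 0.28 to 0.74 (permutation test, two-sided, p = 3.0e-05, adjusted p = 7.50e-05). With the GC trend removed the shifts against Bace1 and Apoe were 0.61 and 0.78 (permutation test, two-sided, adjusted p = 2.5e-05 for both). With GC taken over the principal transcript they were 0.48 and 0.71 (adjusted p = 5.0e-05 for both in the same test).

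Against its paralogs the margin of App was smaller. App minus Aplp2 went from 1.46 ± 0.140 (SD, n = 10) to 1.61 ± 0.0503 (SD, n = 11), a shift of 0.16 with a 95% interval from 0.06 to 0.25 (permutation test, two-sided, p = 0.00135, adjusted p = 0.00225). Its groups overlapped, with 1 of 11 HF-HI libraries beyond the sham range. This shift was 0.28 with the GC trend removed and 0.10 with GC taken over the principal transcript (permutation test, two-sided, adjusted p = 4.0e-05 and 0.0305). App minus Aplp1 shifted by 0.22 with a 95% interval from 0.03 to 0.41 (permutation test, two-sided, p = 0.0204, adjusted p = 0.0255), and HF-HI library 9, where Aplp1 was low, had the highest value at 2.10. Without the HF-HI libraries 9 and 11 this shift was 0.15 and no longer passed (permutation test, two-sided, adjusted p = 0.0651), and without sham library 2 it was 0.18 (permutation test, two-sided, adjusted p = 0.0560). With the GC trend removed it was 0.53 and passed (permutation test, two-sided, adjusted p = 3.3e-05).

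App minus Clu had the smallest shift in the values as deposited, 0.13 with a 95% interval from 0.02 to 0.23 (permutation test, two-sided, p = 0.0281, adjusted p = 0.0281). This call was lost when any of the sham libraries 1, 2, 3 or 9 or the HF-HI library 2 was left out, with shifts near 0.11 and adjusted p from 0.0528 to 0.0583 in the same permutation test. It was 0.31 with the GC trend removed, and 0.22 with GC taken over the principal transcript (permutation test, two-sided, adjusted p = 3.75e-05 and 5.12e-04), and in both the shift against Aplp2 was the smallest. With quantile normalization the shifts against Aplp1, Aplp2 and Clu were 0.18, 0.12 and 0.09 and did not pass, while those against Bace1 and Apoe were 0.47 and did.

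**Figure D2:**
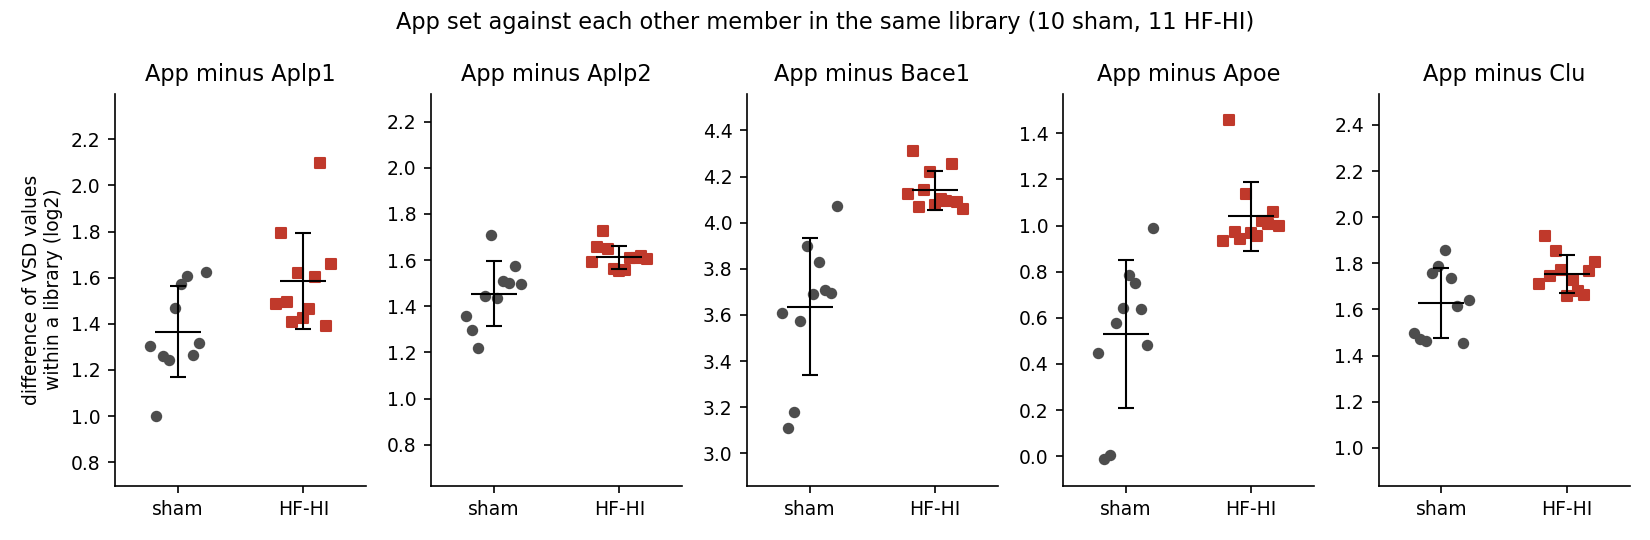
VSD value of App minus that of each other gene in the same library (log2), sham as grey circles (n = 10) and HF-HI as red squares (n = 11), with the mean and SD as black bars and the same length of axis in each panel. The groups lie furthest apart for Bace1 and Apoe, with shifts of 0.50 and 0.51, and the smallest shift is that for Clu, 0.13.

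The mice of the sham group differed more among themselves in App than the HF-HI mice did. The sham SD of 0.234 was 4.49 times the HF-HI SD of 0.0520 (permutation test of the absolute deviations from the group median, two-sided, p = 0.00155). Only 13 of the 5544 genes had a larger ratio, and the median ratio was 1.19. Clu, with a ratio of 3.04 (permutation test, two-sided, p = 0.00648), and Aplp2, with a ratio of 2.76 (permutation test, two-sided, p = 0.0595), came next, and the ratios of Bace1, Apoe and Aplp1 were 1.41, 1.20 and 0.769. Without HF-HI library 2 the ratio of Apoe was 2.09 and passed (permutation test, two-sided, p = 0.0335), and that of Aplp1 turned to 1.34 without HF-HI library 9. The ratio of Clu was 1.90 with the GC trend removed and its test no longer passed (permutation test, two-sided, p = 0.0789). A limma test of the same deviations over all genes with Benjamini-Hochberg adjustment called 0 of 5544 genes, with 530 at an unadjusted p under 0.05, of which 508 were wider in sham, and gave App an adjusted p of 0.194.

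In the sham group App rose and fell with Aplp2 from mouse to mouse. The 2 genes had a Pearson r of 0.876 (permutation test, two-sided, p = 0.00115, adjusted p = 0.0126 over 22 relations by Benjamini-Hochberg) and a Spearman rho of 0.794 (p = 0.00865, adjusted p = 0.0476) over 10 sham libraries. Without the 2 libraries farthest from the median of Aplp2 the r was 0.809. In HF-HI, where both genes varied little, r was 0.465 over 11 libraries (permutation test, two-sided, p = 0.147, adjusted p = 0.360) and rho was 0.618 (p = 0.0471, adjusted p = 0.207), and r was 0.845 without the 2 farthest. The difference between the groups in this relation was not tested.

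Clu also went with App in sham, with r of 0.762 (permutation test, two-sided, p = 0.00967, adjusted p = 0.0532) and rho of 0.806 (p = 0.00698, adjusted p = 0.0476), and r was 0.597 without the 2 libraries farthest from the median of Clu. In HF-HI r was 0.0275 (permutation test, two-sided, p = 0.937, adjusted p = 0.982) and rho 0.118 (p = 0.735, adjusted p = 0.932), and the difference between the groups was not tested. Aplp1 instead followed the GC slope of its library within both groups. In sham r was 0.816 (permutation test, two-sided, p = 0.00425, adjusted p = 0.0312) and rho 0.867 (p = 0.00214, adjusted p = 0.0471), and r was 0.727 without the 2 libraries of most extreme slope. In HF-HI r was 0.901 (permutation test, two-sided, p = 2.9e-04, adjusted p = 0.00638) and rho 0.809 (p = 0.0043, adjusted p = 0.0473), and r was 0.726 without the 2 farthest. For App the r with the GC slope was 0.223 in sham (permutation test, two-sided, p = 0.526, adjusted p = 0.839) and 0.169 in HF-HI (p = 0.614, adjusted p = 0.844), with rho of 0.358 (p = 0.312, adjusted p = 0.644) and 0.409 (p = 0.215, adjusted p = 0.524), and r of 0.277 and 0.269 without the 2 farthest. For the GC-rich Apoe r was 0.559 in sham (permutation test, two-sided, p = 0.0936, adjusted p = 0.294) and 0.121 in HF-HI (p = 0.689, adjusted p = 0.892). The slope was fitted over all genes with a GC content, Aplp1 among them. Its relation to genes other than App, its paralogs, Bace1, Apoe and Clu was not computed, so nothing particular to Aplp1 is shown.

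**Figure D3:**
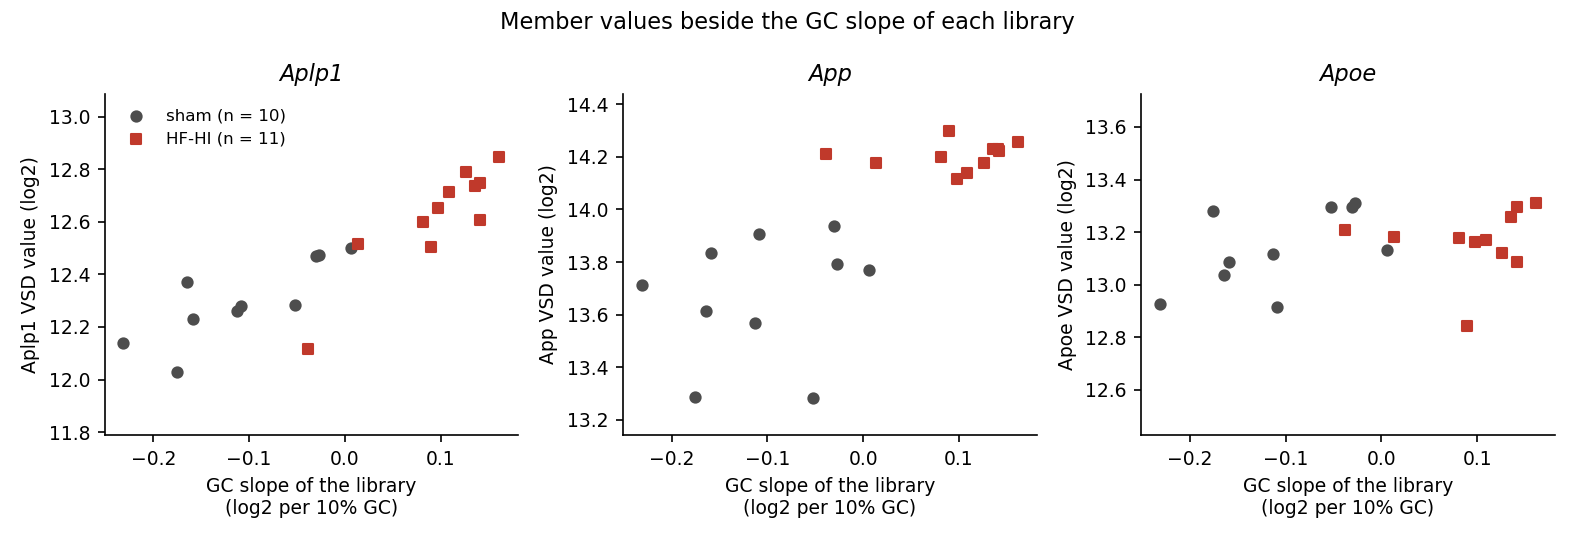
VSD value (log2) of Aplp1, App and Apoe against the GC slope of each library (log2 units per 10% GC), sham as grey circles (n = 10) and HF-HI as red squares (n = 11). Aplp1 climbs with the slope within each group, with r of 0.816 in sham and 0.901 in HF-HI. For App r is 0.223 and 0.169, and for Apoe 0.559 and 0.121.

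The genes most like App in their deviations from the group means over the 21 libraries were Map1b, which encodes a microtubule-associated protein of axons and dendrites (r = 0.959), Selenow, a selenoprotein gene (r = 0.932), and Clptm1 (r = 0.928). Golga4, which encodes a golgin of the trans-Golgi network (r = 0.907), and Pacsin1, a neuronal gene of synaptic vesicle endocytosis (r = 0.906), followed. These r describe libraries that also share depth and base composition, and carry no test. All 5 of these genes were higher in HF-HI, by 0.24 for Golga4 to 0.87 for Pacsin1 (limma, largest Benjamini-Hochberg adjusted p = 0.00116), beside 32.6% of all genes.

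The other genes had their own companions by the same measure. Clcn6 (r = 0.889), Ehmt2 (r = 0.887) and Man2a2 (r = 0.881) were most like Aplp1, and Got2 (r = 0.9005), the neurofilament gene Nefh (r = 0.875) and Tspan5 (r = 0.838) most like Aplp2. Zmynd11 (r = 0.933), 1500011B03Rik (r = 0.869) and Atp6v0c (r = 0.863), a subunit gene of the vacuolar proton pump, were most like Clu. For Bace1 these were Tcf12 (r = 0.797), Pex6 (r = 0.734) and Zxdb (r = 0.729), and for Apoe Tmcc2 (r = 0.799), Ly6h (r = 0.779) and Dlgap3 (r = 0.756). None of these genes was among the closest of more than 1 member. Among the members, r of the deviations was 0.834 between App and Aplp2, 0.703 between App and Clu and 0.678 between Bace1 and Apoe, and -0.733 between Aplp2 and Bace1. Aplp1 had r of 0.295 with App and 0.0496 with Aplp2.

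Beyond these 6 genes, lists of the APP pathway held 77 others, and 50 were measured. Of these, 20 were higher and 12 lower at an adjusted p under 0.05 (limma, Benjamini-Hochberg), which is 40.0% and 24.0% against 32.6% and 33.6% of all genes. Their median difference was 0.03 against -0.01 over all genes. The split was 17 and 17 with library medians centred, where all genes had 1448 and 2376, and 17 and 16 with quantile normalization, where all genes had 1547 and 2242. Removing the GC trend gave 17 and 14, and 1620 and 1716 among all genes.

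Few of the secretase genes had deposited values, and the differences of those that did were small. Of the alpha-secretases, Adam10, the main enzyme of the alpha route in neurons, had 10.15 ± 0.157 (SD, n = 10) for sham and 10.19 ± 0.143 (SD, n = 11) for HF-HI, a difference of 0.03 (limma, Benjamini-Hochberg adjusted p = 0.661). Adam9 differed by 0.07 (adjusted p = 0.0668 in the same test). Both passed as higher with the GC trend removed, Adam9 by 0.09 and Adam10 by 0.14 (limma, Benjamini-Hochberg adjusted p = 0.0251 and 0.0249), and Adam10 turned to -0.02 with library medians centred and to -0.01 without HF-HI library 9. Adam9 passed at 0.09 without sham library 4, and at 0.08 without sham library 6 or HF-HI library 9.

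Of the gamma-secretase complex, 2 of 7 genes were measured and they moved in opposite directions. Ncstn, which encodes the substrate-binding subunit nicastrin, was higher, at 8.73 ± 0.108 (SD, n = 10) for sham and 8.87 ± 0.0555 (SD, n = 11) for HF-HI, a difference of 0.14 (limma, Benjamini-Hochberg adjusted p = 0.00325). Aph1b, a scaffold subunit, was lower by 0.16 (value -0.16, limma, Benjamini-Hochberg adjusted p = 4.89e-04). Removing the GC trend gave 0.08 and -0.09, and with GC content taken over the principal transcript, 0.07 and -0.07, neither of which passed (limma, Benjamini-Hochberg adjusted p = 0.0803 and 0.0817).

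Modulators of the secretases and other proteases of the precursor held the largest increases. Of 9 genes measured 5 were higher and 2 lower, with a median of 0.14, beside 32.6% and 33.6% of all genes, and 5 and 1 once the GC trend was removed. The reticulon gene Rtn1, whose family binds the beta-secretase, went from 12.31 ± 0.213 (SD, n = 10) to 13.02 ± 0.0708 (SD, n = 11), a difference of 0.71 (standard error 0.0635; limma, Benjamini-Hochberg adjusted p = 4.36e-09). The endothelin-converting enzyme gene Ece1, a protease that can degrade amyloid-beta, was higher by 0.58, the lysosomal protease gene Ctsb by 0.50 and Tmed10, of a cargo receptor of the early secretory pathway that also binds presenilin complexes, by 0.37 (limma, Benjamini-Hochberg adjusted p = 7.98e-09, 5.91e-07 and 8.36e-08). Groups did not overlap for any of these 4 genes, which were named for the largest differences of this list. Among all genes 8.71% were higher without overlap. The precursor-binding BRI genes Itm2b and Itm2c were the 2 that were lower, at -0.11 and -0.22 (limma, Benjamini-Hochberg adjusted p = 0.00743 and 0.00162), and the insulin-degrading enzyme gene Ide, at -0.02, did not pass (adjusted p = 0.524 in the same test). Once the GC trend was removed Itm2b was at -0.07 and lost its call, Itm2c was at -0.43 and passed, and Ide turned to 0.05 and did not pass (limma, Benjamini-Hochberg adjusted p = 0.0603, 3.51e-08 and 0.106).

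Among cytoplasmic adaptors that bind the tail of the precursor, 6 of 10 measured genes were higher and 1 was lower, with a median of 0.20, beside 32.6% and 33.6% of all genes, and 6 and 4 once the GC trend was removed. Apba1, the neuronal adaptor X11 alpha, was higher by 0.49, and the JNK scaffold genes Mapk8ip1 and Mapk8ip2 by 0.42 and 0.26 (limma, Benjamini-Hochberg adjusted p = 6.44e-07, 1.09e-08 and 3.93e-04). Dab1, the adaptor of reelin signaling, was higher by 0.29 (adjusted p = 9.61e-06 in the same test). With the GC trend removed Apba1, Mapk8ip1 and Mapk8ip2 were at 0.33, 0.17 and 0.09 and still passed. Mapk8ip2 lost its call at 0.08 when a replicate block was added to that fit (limma, Benjamini-Hochberg adjusted p = 0.126). Apbb1, which encodes Fe65, was the lower gene at -0.25 (limma, Benjamini-Hochberg adjusted p = 0.00155), and it was at -0.52 with the GC trend removed.

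Of 15 genes of sorting and endocytosis measured, 3 were higher and 5 lower, with a median of -0.07, beside 32.6% and 33.6% of all genes, and 1 and 5, not all the same genes, once the GC trend was removed. The clathrin adaptor gene Gga3, which takes part in the sorting of the beta-secretase to lysosomes, was higher by 0.40, and 0.26 with the GC trend removed (limma, Benjamini-Hochberg adjusted p = 7.86e-06 and 8.22e-05). The retromer core genes were among the lower ones, Vps26a at -0.21, Vps29 at -0.14 and Vps35 at -0.14 (limma, Benjamini-Hochberg adjusted p = 1.19e-04, 0.00183 and 0.00124), while their relative Vps26b was higher by 0.10 (adjusted p = 0.0222 in the same test). After GC trend removal Vps26a was at -0.16 and still passed (limma, Benjamini-Hochberg adjusted p = 3.79e-04). Vps29 and Vps35 were then at -0.05 and -0.01 and Vps26b at 0.05, and none of them passed. Only with the GC trend removed did Arf6 (-0.36), Bin1 (-0.28) and Sort1 (-0.07) pass as lower (limma, Benjamini-Hochberg adjusted p = 4.32e-05, 2.19e-05 and 0.0422). In the values as deposited they were at -0.07, -0.09 and -0.01 and did not pass (adjusted p = 0.116, 0.0617 and 0.876 in the same test). The sortilin-family receptor genes Sorcs1 and Sorcs2 moved apart, at -0.20 and 0.22 (limma, Benjamini-Hochberg adjusted p = 2.17e-05 and 1.29e-04), and Sorcs2 did not pass at 0.07 with the GC trend removed. Sorl1, which encodes the sorting receptor SORLA, did not pass at 0.03 (limma, Benjamini-Hochberg adjusted p = 0.488), nor at -0.04 with the GC trend removed (adjusted p = 0.476 in the same test).

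**Figure D4:**
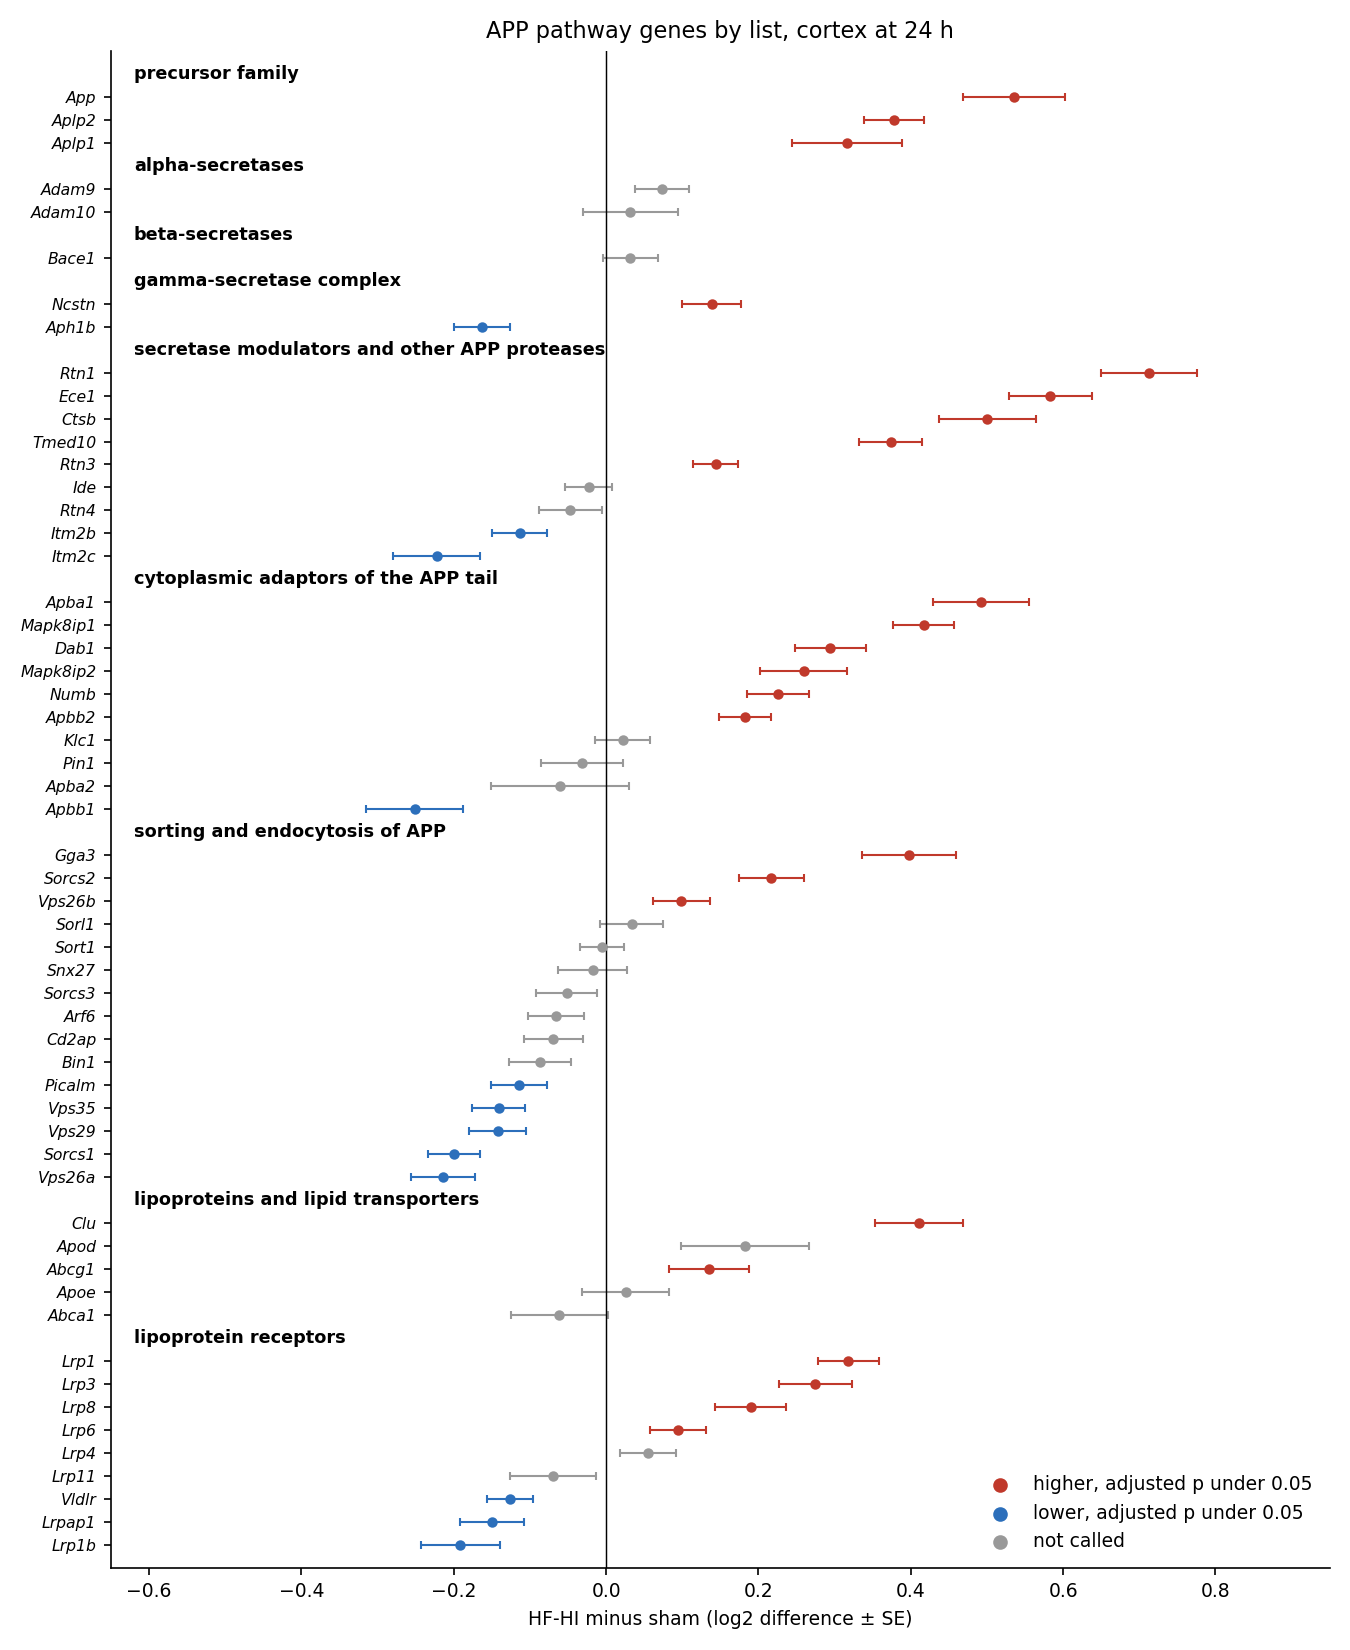
HF-HI minus sham difference (log2, points with standard error bars) of each measured gene of the APP pathway lists, 10 sham and 11 HF-HI libraries, red where higher, blue where lower and grey where the adjusted p was not under 0.05. The precursor family lies to the right of 0 at 0.32 to 0.54, the measured secretases lie between -0.16 and 0.14, and Rtn1 at 0.71 has the largest difference.

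Beside Apoe and Clu, 3 lipoprotein and lipid transporter genes were measured. The cholesterol transporter gene Abcg1 was higher by 0.13 (limma, Benjamini-Hochberg adjusted p = 0.0274), a call that was lost, among other alternatives, with library medians centred (0.08), quantile normalization (0.09), GC trend removal (0.05) and relative depth as a covariate (0.10), and without sham library 6 (0.11) or 7 (0.11). Apod at 0.18 and Abca1 at -0.06 did not pass (limma, Benjamini-Hochberg adjusted p = 0.0594 and 0.404). Of 9 lipoprotein receptor genes measured, 4 were higher and 3 lower, with a median of 0.06, beside 32.6% and 33.6% of all genes, and 2 and 3 once the GC trend was removed. Lrp1, a neuronal and glial receptor of apolipoprotein E that also binds the precursor, was higher by 0.32 without overlap between the groups, and by 0.11 with the GC trend removed (limma, Benjamini-Hochberg adjusted p = 5.08e-07 and 9.56e-04). Lrp3 and the reelin receptor gene Lrp8 were higher by 0.27 and 0.19 and Lrp1b was lower at -0.19 (limma, Benjamini-Hochberg adjusted p = 2.93e-05, 0.00111 and 0.00252). With the GC trend removed Lrp3 turned to -0.06, and Lrp8 at 0.10 and Lrp1b at -0.08 did not pass.

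Cortex holds several cell types, and in such bulk samples fewer cells of a type and less RNA per cell cannot be told apart. Of 12 neuron markers measured, 8 were higher and 0 lower, with a median of 0.29, beside 32.6% and 33.6% of all genes, and the log2 of their summed level spanned 16.37 to 16.52 among sham mice (median 16.43) and 16.62 to 16.77 among HF-HI mice (median 16.68). Their most abundant gene Snap25 had a mean of 14.60 in sham and 14.75 in HF-HI, and the differences were uneven, from -0.10 in Gad1, which like Gad2, Nefl and Eno2 did not pass, to 1.32 in Nrgn. Eno2, at -0.06, passed as lower at -0.25 with the GC trend removed (limma, Benjamini-Hochberg adjusted p = 4.87e-06). The part of neuron content in the difference of App was not tested.

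Astrocyte markers, set beside Apoe and Clu, split in direction. Of 13 listed, 11 were measured, 5 were higher and 3 lower, with a median of 0.01, beside 32.6% and 33.6% of all genes, and 4 and 4 once the GC trend was removed. The log2 of their summed level spanned 16.53 to 16.65 among sham mice (median 16.60) and 16.62 to 16.73 among HF-HI mice (median 16.67). Their most abundant gene Slc1a2 had a mean of 15.70 in sham and 15.77 in HF-HI. Gfap, a marker of reactive astrocytes, was higher by 0.29 (limma, Benjamini-Hochberg adjusted p = 0.0258) but did not pass with the GC trend removed (0.19, adjusted p = 0.155). The part of astrocyte content in the difference of Clu was not tested.

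Of the other cell types, 8 of 10 oligodendrocyte markers were measured, 3 were higher and 0 lower, with a median of 0.08, beside 32.6% and 33.6% of all genes. GC trend removal took Olig1 from 0.32 to 0.01 and its call was lost, while Mog at -0.25 and Cnp at -0.22 passed as lower (limma, Benjamini-Hochberg adjusted p = 0.0304 and 0.0445). The log2 of their summed level spanned 15.27 to 15.99 among sham mice (median 15.58) and 15.31 to 16.00 among HF-HI mice (median 15.75), and Mbp had a mean of 14.07 and 14.46. Endothelial markers, 2 of 7 measured, had 1 higher and 0 lower, beside 32.6% and 33.6% of all genes, and a median of 0.16. Their sum spanned 9.79 to 10.12 among sham mice (median 10.003) and reached 10.27 among HF-HI mice (median 10.17), with Flt1 the most abundant.

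Of 6 choroid plexus markers only Ttr was measured, at -0.04, and it did not pass. It spanned 6.16 to 11.51 among sham mice (median 7.46) and 6.86 to 13.35 among HF-HI mice (median 7.25), with sham libraries 3 and 8 and HF-HI library 3 far above most others. Blood markers, 2 of 4 measured, had 0 higher and 0 lower, beside 32.6% and 33.6% of all genes, and a median of 0.24. Their sum spanned 9.34 to 10.48 among sham mice (median 9.95) and 9.33 to 11.26 among HF-HI mice (median 9.96), with Hbb-bs the most abundant. The part of these cell types in the results was not tested.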

How the data were processed

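The authors deposited log2 values after the variance-stabilizing transformation of DESeq2, 1 column per cortex library, for 10 sham and 11 HF-HI mice. Per the labels and the methods, reads were aligned to mm10 with STAR and counted with eXpress; the reporting summary gives a version for DESeq2 alone, and the gene annotation and the use of strand in counting are not given. The table holds 5544 genes, and 5539 had a GENCODE symbol. Each gene was fitted on group with limma 3.58.1 in R 4.3.3 (eBayes with a trend, Benjamini-Hochberg over all genes, threshold 0.05), and App minus each other gene, spread and correlations with permutation tests of 100000 resamples, two-sided, in Python 3.11.15 with numpy 2.4.6, scipy 1.17.1 and pandas 2.3.3; figures used matplotlib 3.10.9. The code was tested on simulated data. P-values of pairs and of within-group relations were adjusted over the pairs or relations. Those of spread were left unadjusted, and a limma fit of the deviations was adjusted over all genes.

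The GC trend of each library was removed by a lowess curve (span 0.3) on exonic GC. Relative depth came from the spacing of low values, since whole counts leave steps there. Read counts were not used here, so absolute depth and its counting error are not given. The members and lists were chosen with earlier results of these data known. Genes were named by a rule: the members, all measured secretases, up to 4 genes of each other pathway list with the largest absolute difference among the called, and the 5 genes (App) or 3 genes (other members) most like each by correlation of deviations. Itm2b, Itm2c, Ide, Apbb1, Vps29, Vps35, Vps26b, Arf6, Bin1, Sort1, Sorl1, Apod, Abca1, Gad1, Gad2, Nefl, Eno2, Nrgn, Gfap, Olig1, Mog and Cnp were named after their values were seen. Alternatives were other scalings, thresholds, a filter on low values, a replicate block, GC removal, a depth covariate and leaving out each library.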

Additional observations from a re-analysis of the deposited data

Results flagged for a closer look

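In 3 of 52 sets of values tested within the sham group, 1 mouse lay far from the other mice. Adam9 was lowest in sham library 2, at 9.10, Ncstn was lowest in sham library 3, at 8.48, and Zxdb was lowest in sham library 10, at 9.35. In each the gap to the nearest other mouse was large against the whole range of the group by Dixon's test. Chance flags about 1 in 20 groups, and the cause was not tested. Sham libraries 2 and 3 also held the lowest values of App, at 13.28 and 13.29.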

How the results depend on the processing

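The 4 higher and 0 lower members held in each of the 21 fits that left out 1 library, where App spanned 0.49 to 0.57, Aplp2 0.35 to 0.40, Clu 0.39 to 0.44 and Aplp1 0.29 to 0.37. With library medians centred, Bace1 turned to -0.020, Apoe to -0.026 and Adam10 to -0.020, and with quantile normalization Bace1 turned to -0.014 and Apoe to -0.015. Quantile normalization also took App minus Aplp1, at 0.18, App minus Aplp2, at 0.12, and App minus Clu, at 0.089, to an adjusted p above the threshold. The cause was not tested.

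With the GC trend removed 1 member was lower. Aplp1 was at 0.051 and lost its call, and Bace1 (-0.029), Apoe (-0.19), Lrp3 (-0.058), Ehmt2 (-0.22), Man2a2 (-0.020), Tcf12 (0.039), Tmcc2 (-0.074) and Ly6h (-0.088) turned. The spread ratio of Apoe turned to 0.891 and that of Clu weakened to 1.90. The same with a replicate block gave 1 lower member, Aplp1 0.053, Bace1 -0.038, Apoe -0.20, Lrp3 -0.056, Ehmt2 -0.22, Man2a2 -0.013, Tcf12 0.027, Tmcc2 -0.085 and Ly6h -0.11. In that fit Mapk8ip2 (0.082), Ncstn (0.081) and Aph1b (-0.085) lost their calls. The cause was not tested.

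Some alternatives were chosen after seeing the data. With relative depth as a covariate 4 members were higher and 0 lower, with App at 0.56 and Aplp1 at 0.28. GC taken over the principal transcript gave 1 lower member, Aplp1 0.047, Apoe -0.23, Lrp3 -0.036, Ehmt2 -0.21, Man2a2 -0.020, Tmcc2 -0.079 and Ly6h -0.24, with spread ratios of 0.8996 for Apoe and 1.83 for Clu. Without HF-HI libraries 9 and 11, Adam10 turned to -0.018, App minus Aplp1 was 0.15 and the spread ratio of Aplp1 turned to 1.44. A limma fit of the deviations over all genes did not call the spread ratios of App, 4.49, and Clu, 3.04. The cause was not tested.

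The replicate block, which treats equal library numbers as pairs, took App minus Aplp1, at 0.21, and App minus Clu, at 0.12, to an adjusted p above the threshold, and Abcg1 lost its call at 0.14. Equal numbers do not pair mice by their values, since the correlation of same-number libraries spanned -0.310 to 0.364 over 10 numbers and 0 libraries were most like their own number.

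With each library left out in turn, App minus Aplp1 spanned 0.17 to 0.25 and App minus Clu 0.11 to 0.15. The spread ratio of Aplp2 spanned 2.19 to 3.42 and passed without sham library 1, 5 or 9 or HF-HI library 3. That of Bace1 spanned 0.971 to 1.59 and turned without sham library 10, that of Apoe spanned 1.08 to 2.09 and passed without HF-HI library 2, and that of Aplp1 spanned 0.634 to 1.34 and turned without HF-HI library 9. Adam10 spanned -0.0059 to 0.063 and turned without HF-HI library 9. The cause was not tested.

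The table holds 50 of the 77 other pathway genes and 2 of 7 of the gamma-secretase complex, and nothing is said here of the rest. Relative depth differs by library, and the precision of a single value cannot be given without counts.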
